A study of Sus scrofa with 9 samples.

Results

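The genes of the NADPH oxidase complexes were examined for their exonic 5-hydroxymethylcytosine (5hmC) level in swine mesenchymal stem/stromal cells (MSCs). The set comprised 9 genes chosen by symbol, namely NCF1, NCF4, CYBA, CYBB, NOX1, NOX4, NOXO1, DUOX1 and DUOX2. It was chosen with earlier results of these data known. Of these, 8 were found among the 18933 genes of the table that compares Obese-MSCs with Lean-MSCs, and all 9 among the 18992 genes of the table that compares vitamin-C-treated with untreated Obese-MSCs. CYBB was listed in both tables under its older name GP91-PHOX, and CYBA was not analysed here in the first comparison.

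Hydroxymethylated DNA immunoprecipitation sequencing (hMeDIP-seq), in which an antibody against 5hmC pulls down DNA fragments that carry the mark, was performed on 9 libraries, 3 in each of 3 groups. Lean-MSCs (libraries 7, 8 and 9) came from female domestic pigs on standard chow, and Obese-MSCs (libraries 1, 2 and 3) from pigs on a high-fat/high-fructose diet. The pigs were 3 months old at the start of the 16 weeks of diet. Third-passage Obese-MSCs were also cultured for 48 h with vitamin-C at 50 µg/mL (libraries 4, 5 and 6). All cells were primary, were isolated from subcutaneous abdominal fat and were expanded in medium with platelet lysate. The paper states that this medium itself contains vitamin-C at a lower concentration, so untreated cells were not free of it. It adds that the vitamin-C effect may therefore be underestimated. The labels do not tie a treated culture to the untreated culture of its pig. The treatment tests therefore took the libraries as unpaired, and cultures of the same pig may have entered them as independent. For treatment the spread between libraries may also not be a spread between animals. The same untreated libraries serve both comparisons, in tables that were normalized separately, and the differences below were therefore taken within a table only.

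Values are normalized read counts over all exons of a gene, without correction for exon length, so a level can be compared between libraries but not between genes. Errors given after ± are SDs over 3 libraries. Totals per library ranged from 494566 to 522269 normalized counts in the first table and from 547242 to 593846 in the second. The median correlation of a library with the others of its table, over all genes on the log2 scale, lay between 0.907 and 0.921. Differences between genes enter this correlation, so it cannot show whether a library stood apart. The labelled cell type could not be checked from this assay, because 5hmC over exons is not expression. PTPRC, which encodes the leukocyte antigen CD45 and is silent in MSCs, carried 35.9 to 68.5 normalized counts in the first table. The summed level over 6 phagocyte marker genes overlapped between groups, at 109 to 202 in Obese-MSCs and 123 to 155 in Lean-MSCs, and none of the 6 was called in that comparison. CD14, a monocyte gene, had 0.650, 0.924 and 4.49 in Obese-MSCs and was at 0 for all Lean libraries. Its Obese mean of 2.02 was near the bottom of the scale, and it was not called. Groups did not overlap for 11.8% of all genes. The other markers not expected in MSCs overlapped. PTPRC had a lower mean in Obese-MSCs, 46.9 against 59.3, and CD34 had similar means, 18.7 against 17.8.

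NADPH oxidases are membrane enzymes that pass electrons from NADPH inside the cell to oxygen on the other side of the membrane, giving superoxide or hydrogen peroxide. CYBB (also called NOX2), NOX1, NOX4, DUOX1 and DUOX2 are catalytic subunits. CYBA is the small membrane subunit that stabilizes several of them, while NCF1 and NCF4 are cytosolic subunits that assemble with the enzyme when it is activated. NOXO1 is the organizer subunit of the NOX1 enzyme. These oxidases are best known from phagocytes, where they kill microbes, but NOX4 and others also signal in adipose tissue and stem cells. 5hmC is made from methylated cytosine by the TET enzymes, for which vitamin-C is a cofactor, and is often found over the bodies of active genes.

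In Obese-MSCs versus Lean-MSCs, NCF4 had a higher and DUOX1 a lower 5hmC level, and no other member was called. A gene was called by the criteria of the study's methods, which ask for p of at most 0.05 in a two-sided test with equal variances and for group means that differ by a ratio of 1.4 or more (higher) or 0.7 or less (lower). Members called were 2 of 8, 1 in each direction, where 4.50% of all genes were called, 2.07% higher and 2.43% lower. Because the members were chosen with earlier results of these data known, their count is a description and not a test of the set. The paper reports more genes in each direction at the same thresholds, so these shares are not the paper's own. The reason for the difference was not tested. None of the 6 members tested with limma, a linear model that shares its estimate of spread across genes, passed a Benjamini-Hochberg adjusted p of 0.05, as for 0 (0%) of the 15146 genes tested. Without adjustment 1031 genes (6.81%) had a limma p of at most 0.05, with NCF4 and DUOX1 among them. With 3 libraries against 3 the exact permutation test cannot go below 0.1.

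NCF4 encodes a cytosolic subunit that binds the lipid phosphatidylinositol 3-phosphate on phagosome membranes. It lies on chromosome 5 from 10876147 to 10994002 (Sscrofa11.1). Its level was 67.0, 66.4 and 55.5 normalized counts in Obese libraries 1, 2 and 3, and 46.2, 41.7 and 28.8 in Lean libraries 7, 8 and 9. Every Obese library thus lay above every Lean library. The means were 63.0 ± 6.45 and 38.9 ± 9.01 (SD, n = 3 each), a ratio of 1.62 and a log2 ratio of 0.70 (two-sided exact permutation p = 0.1). The limma estimate on the log2(normalized counts + 1) scale was 0.70 with an SE of 0.25, a 95% confidence interval of 0.18 to 1.22 and an adjusted p of 0.668. Among the 15177 genes with a mean above 3 normalized counts in both groups, the ratio of NCF4 was above that of 95.8%. The call was lost without Obese library 1, Obese library 2 or Lean library 8 and held without any 1 of the other libraries, while the log2 ratio kept within 0.52 to 0.84 whichever library was dropped. The annotated span of NCF4 includes that of PVALB, which encodes the calcium-binding protein parvalbumin, over 19742 bases. PVALB itself had 5.84, 7.53 and 19.4 normalized counts in the Obese group against 10.3, 13.9 and 13.3 in the Lean group. These ranges overlapped, with a log2 ratio of -0.20, so this gene inside the span did not share the separation of groups seen for NCF4. Whether the exons counted by the authors for NCF4 follow this span is not given in the sources used here.

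**Figure D1:**
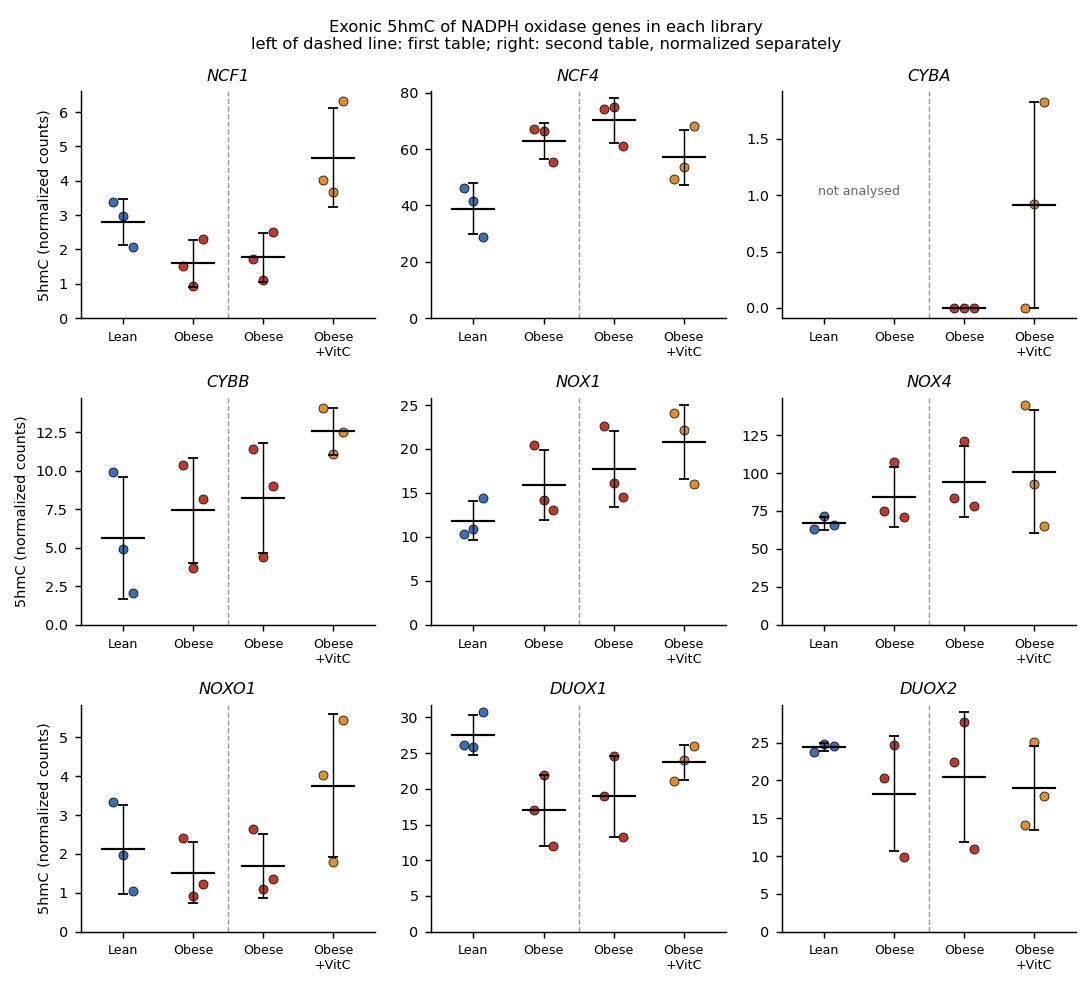
Exonic 5hmC in normalized counts (vertical axes, each starting near 0) for the 9 member genes, 1 point per library, with the mean as a bar and the SD as whiskers. Left of each dashed line are Lean-MSCs and Obese-MSCs, right of it are untreated and vitamin-C-treated Obese-MSCs from a table with its own normalization. NCF4 and DUOX1 are the members whose Obese and Lean points do not overlap, and NCF1 and CYBA those whose treated and untreated points do not. For CYBA the lowest treated value is all but 0.

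DUOX1 encodes a dual oxidase, a calcium-regulated catalytic subunit that releases hydrogen peroxide and is known from thyroid and airway epithelium. It lies on chromosome 1 from 126572533 to 126603084. Its level was 17.1, 21.9 and 12.0 normalized counts in Obese libraries 1, 2 and 3, and 26.1, 25.8 and 30.8 in Lean libraries 7, 8 and 9. All Obese libraries were below all Lean libraries. The means were 17.0 ± 4.92 and 27.6 ± 2.81 (SD, n = 3 each), a log2 ratio of -0.70 (two-sided exact permutation p = 0.1). The limma estimate was -0.70 with an SE of 0.30, a 95% confidence interval of -1.32 to -0.08 and an adjusted p of 0.703. Its ratio was higher than that of only 4.81% of genes. The DUOX1 call was lost without any single library other than Obese library 2, and over all 6 such fits the log2 ratio ranged from -0.92 to -0.50. Groups that did not overlap were found for 2 of 8 members, NCF4 and DUOX1, against 11.8% of all genes, given as a description only.

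DUOX2, the other dual oxidase, stands beside DUOX1 on chromosome 1 from 126620468 to 126641406, with the genes of both maturation factors, DUOXA1 and DUOXA2, in between. These factors carry the dual oxidases to the cell surface. DUOX2 had 20.3, 24.7 and 9.83 normalized counts in the Obese group against 23.8, 24.8 and 24.6 in the Lean group. The Lean values were tightly grouped, Obese library 2 lay among them and Obese library 3 far below, so that the groups overlapped (18.3 ± 7.66 and 24.4 ± 0.562, two-sided exact permutation p = 0.3). The log2 ratio of -0.42 became -0.12 without Obese library 3, and the limma interval ran from -1.17 to 0.20. DUOXA1 had 6.13, 9.54 and 4.85 normalized counts in the Obese group against 13.5, 14.9 and 9.27 in the Lean group, a log2 ratio of -0.88 with overlapping groups. Its limma interval ran from -1.6 to -0.02, with an adjusted p of 0.721. DUOXA2 had 15.7, 15.2 and 9.65 against 13.5, 13.9 and 10.3 and a log2 ratio of 0.10. Obese library 3 was the lowest of the Obese libraries at all 4 genes of this cluster. DUOXA1 and DUOXA2 were not called, so DUOX1 was the only called gene of these 4.

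Of the other catalytic subunits, NOX4, NOX1 and CYBB had higher means in Obese-MSCs, with overlapping groups, and were not called. NOX4, a constitutively active oxidase that gives mainly hydrogen peroxide and spans 22622105 to 22776691 on chromosome 9, had 75.1, 107 and 70.9 normalized counts in the Obese group against 63.4, 71.5 and 65.7 in the Lean group. The groups overlapped by the lowest Obese and the highest Lean library, and Obese library 2 was the highest (84.4 ± 19.9 and 66.9 ± 4.17, two-sided exact permutation p = 0.2). Its log2 ratio of 0.34 fell to 0.13 without that library, and the limma interval was -0.16 to 0.78. NOX1, the superoxide-producing oxidase of colon epithelium spanning 82540664 to 82575811 on chromosome X, had 20.5, 14.2 and 13.1 against 10.3, 10.9 and 14.4. Obese library 1 was above the others, and Lean library 9 lay within the Obese range (15.9 ± 4.01 and 11.8 ± 2.20, log2 ratio 0.43, two-sided exact permutation p = 0.3). The limma interval for NOX1 ran from -0.29 to 1.07. CYBB, the phagocyte oxidase itself, spanning 33654656 to 33678346 on chromosome X, had 10.4, 3.72 and 8.20 normalized counts against 9.94, 4.96 and 2.09. Both groups spanned nearly the same range at these low levels (7.43 ± 3.39 and 5.66 ± 3.97, log2 ratio 0.39, two-sided exact permutation p = 0.7), and without Lean library 9 the log2 ratio was 0.00. Its limma interval, from -0.63 to 1.5, was the widest of the 6 members.

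NCF1 and NOXO1, the organizer subunits of the CYBB and NOX1 enzymes, were near the bottom of the scale. NCF1, spanning 11820367 to 11834394 on chromosome 3, had 1.53, 0.930 and 2.31 normalized counts in the Obese group against 3.37, 2.98 and 2.06 in the Lean group (two-sided exact permutation p = 0.2). NOXO1, spanning 39987340 to 39989640 on chromosome 3, had 2.41, 0.930 and 1.22 against 3.33, 1.98 and 1.04 (two-sided exact permutation p = 0.6). Since both group means were at or below 3 normalized counts for either gene, no ratio was taken. RAC3, one of the partner genes below, was listed at the same rounded values as NOXO1 in the Obese libraries, 2.41, 0.930 and 1.22.

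Over the 6 members with both means above 3 normalized counts, the median log2 ratio was 0.36, with 4 ratios over 1 and 2 under, where the median over all genes was 0.01. The dual oxidases were on one side and NCF4, NOX1, NOX4 and CYBB on the other.

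**Figure D2:**
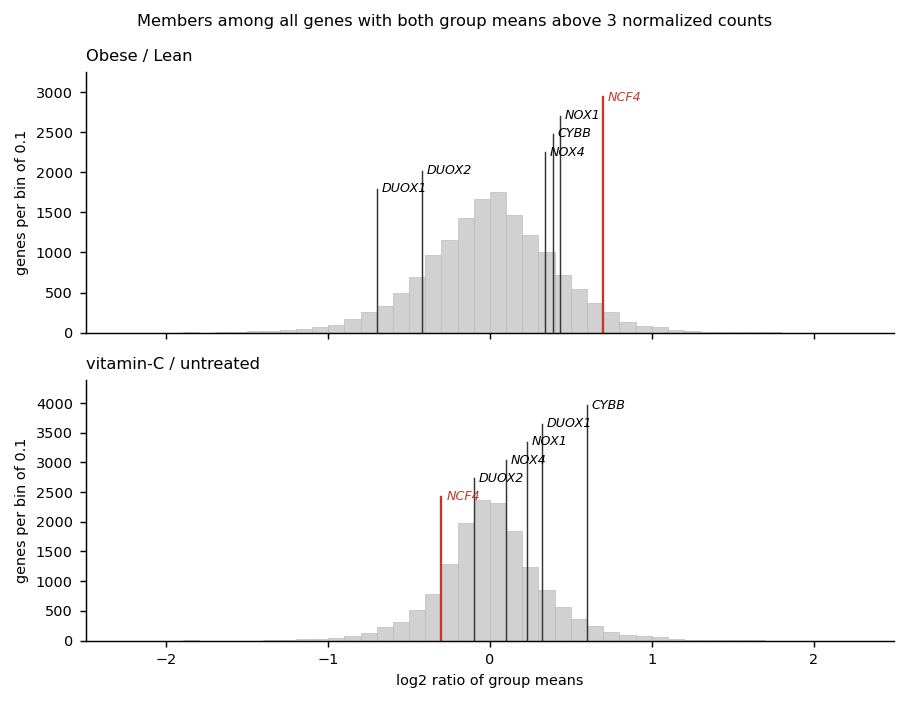
Histograms of the log2 ratio of group means (horizontal axes) over genes with a mean above 3 normalized counts in both groups, in bins of 0.1 (vertical axes, number of genes), with a vertical line for each of 6 members (line height carries no value). In Obese-MSCs versus Lean-MSCs NCF4 lies at 0.70 and DUOX1 at -0.70, and with vitamin-C NCF4 lies at -0.30 and CYBB at 0.60.

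In Obese-MSCs treated with vitamin-C versus untreated, NCF1 was the only member called, and it was higher. This made 1 of 9 members, where 1.92% of all genes were called, 1.11% higher and 0.806% lower. Groups did not overlap for NCF1 and CYBA, 2 of 9 members, against 5.91% of all genes. For CYBA this rests on a lowest treated value of 0.00133 over untreated values of 0, at levels too low for a ratio. In limma 0 of 15192 genes (0%) passed the adjusted threshold, and 148 (0.974%) had an unadjusted p of at most 0.05, with 0 of the 6 members tested among them.

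NCF1 had 4.03, 3.67 and 6.33 normalized counts in treated libraries 4, 5 and 6, and 1.71, 1.10 and 2.52 in untreated libraries 1, 2 and 3. Every treated library was above every untreated library (4.67 ± 1.44 and 1.78 ± 0.713, SD, n = 3 each, two-sided exact permutation p = 0.1). Because all untreated values were at or below 3 normalized counts, the difference is given as at least 1.56-fold higher, against that floor. NCF1 was too low to enter the limma fit, and its call was lost when unequal variances were allowed, without treated library 4, and without any 1 of the untreated libraries. CYBA, on chromosome 6 from 1015212 to 1021422, was listed at 0 in each untreated library and at 0.00133, 0.919 and 1.83 in treated libraries, levels too low for a ratio. Its lowest treated value was all but 0, and CYBA was not called. NOXO1 had 4.02, 1.79 and 5.44 normalized counts with vitamin-C and 2.64, 1.10 and 1.36 without. The lowest treated value fell within the untreated range (3.75 ± 1.84 and 1.70 ± 0.825, two-sided exact permutation p = 0.2). Against the same floor its mean was at least 1.25-fold higher, and it was not called.

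NCF4 had 49.3, 53.7 and 68.2 normalized counts in treated libraries 4, 5 and 6, and 74.4, 75.0 and 61.1 in untreated libraries 1, 2 and 3. Treated library 6 lay above untreated library 3, so the groups overlapped (57.0 ± 9.88 and 70.2 ± 7.84, SD, n = 3 each, two-sided exact permutation p = 0.2). The ratio was 0.813 and the log2 ratio -0.30, above that of 13.7% of the 15644 genes with both means above 3. Dropping any 1 library left it between -0.45 and -0.20. The limma estimate was -0.30 with an SE of 0.25, a 95% confidence interval of -0.83 to 0.22 and an adjusted p of 1.00. NCF4 was thus called higher in Obese-MSCs than in Lean-MSCs, and its lower mean with vitamin-C was not called. The untreated libraries enter both ratios, from opposite sides, and no test joined them.

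CYBB had 14.1, 11.1 and 12.5 normalized counts with vitamin-C and 11.4, 4.38 and 9.02 without, and was lowest in untreated library 2. The groups overlapped by 1 of 9 pairs of libraries (12.6 ± 1.51 and 8.26 ± 3.56, two-sided exact permutation p = 0.2). Its log2 ratio of 0.60 was the highest of the 6 members, with a limma interval of -0.21 to 1.47. DUOX1 had 21.1, 24.1 and 26.0 against 19.0, 24.6 and 13.3 normalized counts, overlapping (23.7 ± 2.45 and 19.0 ± 5.61, log2 ratio 0.32, two-sided exact permutation p = 0.3). The limma interval for DUOX1 was -0.32 to 1.01, and its log2 ratio was 0.12 to 0.55 when 1 library was dropped. DUOX2 had 14.1, 25.1 and 17.9 against 22.5, 27.8 and 11.0, with both groups covering much of the same range (19.0 ± 5.60 and 20.4 ± 8.60, log2 ratio -0.10, two-sided exact permutation p = 0.9).

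NOX1 had 24.1, 22.2 and 16.0 normalized counts with vitamin-C and 22.6, 16.1 and 14.5 without (20.8 ± 4.26 and 17.8 ± 4.30, log2 ratio 0.23, two-sided exact permutation p = 0.5). Treated library 6 fell within the untreated range. NOX4 had 145, 92.5 and 65.1 against 83.7, 121 and 78.1 (101 ± 40.5 and 94.3 ± 23.4, log2 ratio 0.10, two-sided exact permutation p = 0.8). For NOX4 the treated libraries held both the highest and the lowest value of all, and dropping 1 library moved the log2 ratio from as low as -0.26 to as high as 0.33. The limma intervals were -0.45 to 0.90 for NOX1 and -0.57 to 0.67 for NOX4. The median log2 ratio of the 6 members was 0.16, against 0.00 over all genes.

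**Figure D3:**
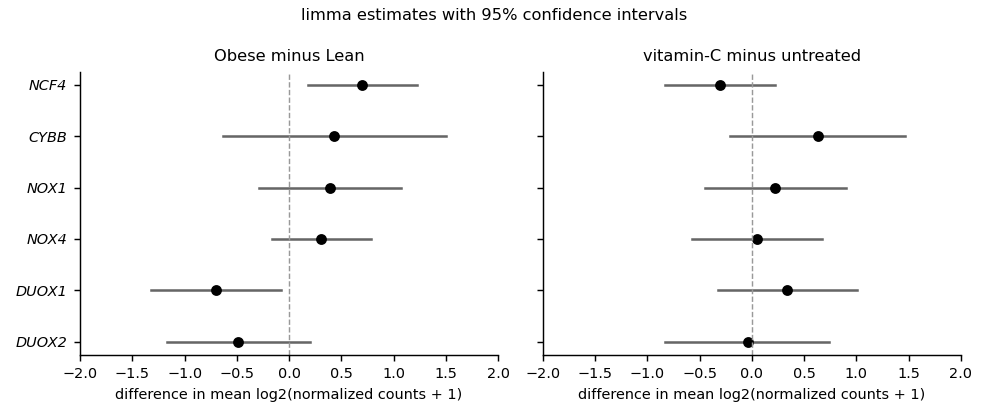
limma estimates (points) with 95% confidence intervals (lines) of the difference in mean log2(normalized counts + 1) for the 6 members tested, for Obese-MSCs minus Lean-MSCs on the left and vitamin-C-treated minus untreated on the right. The intervals of NCF4 (0.18 to 1.22) and DUOX1 (-1.32 to -0.08) on the left do not include 0, and every other interval does. These intervals are not adjusted for the number of genes.

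**Figure D4:**
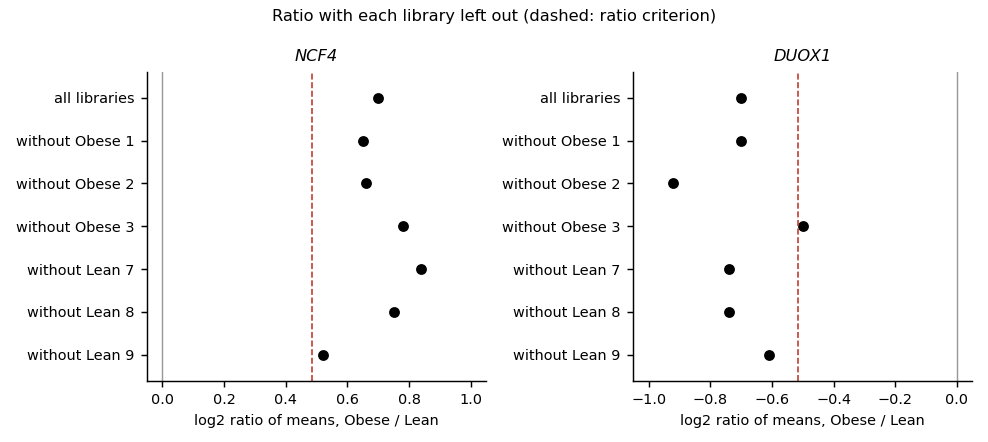
The log2 ratio of means in Obese-MSCs versus Lean-MSCs (horizontal axes) for NCF4 and DUOX1 with all libraries, then with 1 library removed at a time. The dashed line is the ratio criterion of 1.4 for NCF4 and 0.7 for DUOX1. NCF4 stays past its line throughout, from 0.52 to 0.84, and DUOX1 falls just short of its line without Obese library 3, at -0.50.

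Of 13 partner genes of these oxidases, 11 were found in each table, and 0 of 11 were called in either comparison, NOXA1 and CYBC1 not being analysed here. In Obese-MSCs versus Lean-MSCs their median log2 ratio was -0.14 over the 10 with a ratio. RAC1, the small GTPase that switches on the NOX1 and CYBB enzymes, had the highest. Its level was 85.1, 53.0 and 78.7 normalized counts in the Obese group against 46.4, 49.6 and 48.3 in the Lean group, without overlap and with a log2 ratio of 0.59, but it did not meet the p criterion. RAC1 was the 1 of 11 partners whose groups did not overlap, against 11.8% of all genes. With vitamin-C the groups did not overlap for 0 of 11, against 5.91% of all genes. RAC2, the related GTPase of phagocytes, had a log2 ratio of -0.16. With vitamin-C the log2 ratios of the partners ran from -0.23 for NOX3 to 0.28 for RAP1A, with RAC1 at -0.06, and the RAP1A value ran from -0.16 to 0.54 when 1 library was dropped.

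**Figure D5:**
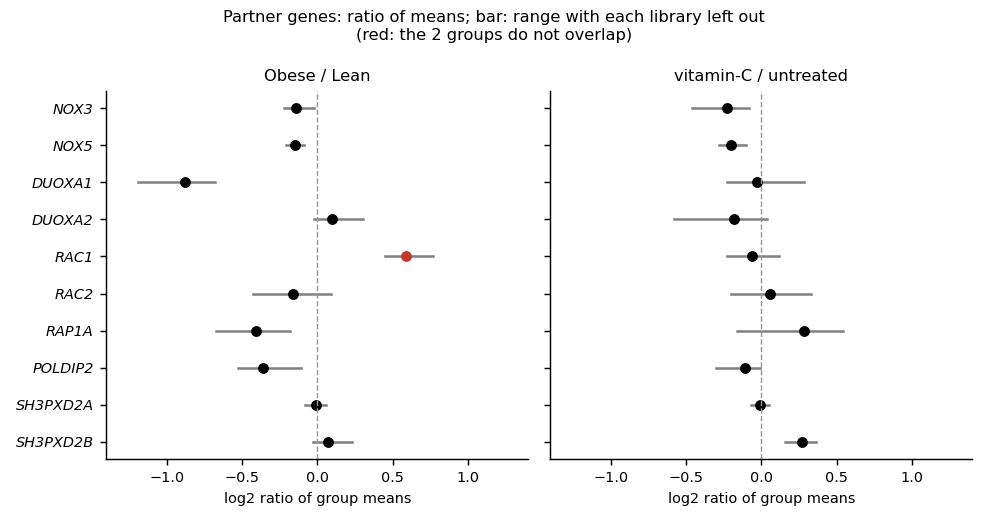
The log2 ratio of group means (points) for 10 partner genes, with a bar for its range when each library is left out. Red marks groups that do not overlap. This holds for RAC1 in Obese-MSCs versus Lean-MSCs, at 0.59, where 11.8% of all genes do not overlap. With vitamin-C it holds for none of the 10, where 5.91% of all genes do not overlap. DUOXA1 has the lowest ratio on the left, at -0.88.

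Of 15 oxidase regulators, such as exchange factors and protein kinases, 0 were called in either comparison. In Obese-MSCs 6 had a ratio over 1 and 8 under 1. ARHGDIB had the lowest. Its level was 7.21, 3.76 and 3.64 normalized counts against 13.4, 7.94 and 9.25 in Lean-MSCs, without overlap and with a log2 ratio of -1.07. ARHGDIA, its relative, separated the other way at values too low for a ratio, with 4.00, 2.84 and 1.29 against 1.12, 0.993 and 0.00452. These were the 2 of 15 regulators whose groups did not overlap, against 11.8% of all genes. PRKCD had the highest at 0.32. With vitamin-C the regulators ran from -0.69 for PRKCB to 0.62 for ARHGDIA, with overlapping groups for both genes. The untreated mean of ARHGDIA was 3.03, just above the floor of 3 normalized counts. Of the 4 enzymes that remove superoxide and peroxide 0 were called either way. In Obese-MSCs versus Lean-MSCs the 3 with a ratio lay between -0.19 (SOD3) and 0.19 (SOD1) on the log2 scale. SOD2, the mitochondrial superoxide dismutase, had 11.3, 2.76 and 7.08 normalized counts against 2.3, 0 and 6.12, overlapping, and no ratio because its Lean mean was below 3. With vitamin-C the 4 log2 ratios lay between -0.44 (SOD2) and 0.26 (SOD1). The SOD1 value rested on treated library 4, at 17.1 normalized counts against 5.47 and 4.32 in the other treated libraries, and it ran from -0.61 to 0.59 when 1 library was dropped. The signs of SOD1 and SOD3 in Obese-MSCs versus Lean-MSCs, and of SOD2 with vitamin-C, also changed when 1 library was dropped.

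Of the 7 enzymes that supply NADPH 0 were called in either comparison. They had a median log2 ratio of 0.17 in Obese-MSCs versus Lean-MSCs, from -0.33 for PGD to 0.58 for IDH2. Groups did not overlap for 2 of them, IDH1 and H6PD, which were singled out after their values were seen, where 11.8% of all genes did not overlap. IDH1 had 26.5, 25.6 and 24.8 normalized counts in the Obese group against 20.3, 17.9 and 17.5 in the Lean group, a log2 ratio of 0.47 that fell short of the ratio criterion. H6PD had 250, 231 and 212 against 153, 195 and 184, a log2 ratio of 0.38. With vitamin-C this group ran from -0.27 for IDH1 to 0.46 for NNT. The 4 transcription factors that drive the phagocyte oxidase genes, of which SPI1 is also a phagocyte marker above, were not called either and ran from -0.20 (IRF8) to 0.56 (SPI1) in Obese-MSCs. With vitamin-C all 4 had lower means, from -0.64 (IRF8) to -0.09 (CEBPE), with overlapping groups. When 1 library was dropped, IRF8 alone of the 4 kept its sign, from -0.90 to -0.39. SPI1 ran from -0.61 to 0.07 and CEBPE from -0.40 to 0.12.

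The genes whose level across libraries was most like that of NCF4 were FBXW4, ZHX2 and RBM15B. The likeness was the lower of the Pearson correlations over the 6 libraries of each table, on log2(normalized counts + 1), computed for 9117 genes whose mean ranked in the upper 50% of each table, and the untreated libraries enter both correlations. The correlations were 0.93 and 0.88 for FBXW4, 0.88 and 0.94 for ZHX2, and 0.93 and 0.88 for RBM15B. RBM15B came closest to NCF4 in the size of the difference, with 37.6 ± 6.84 normalized counts in the Obese group against 23.7 ± 3.12 in the Lean group, a log2 ratio of 0.67, while FBXW4 and ZHX2 were at 0.17 and 0.16. With vitamin-C their log2 ratios were -0.23, -0.20 and -0.22 for FBXW4, ZHX2 and RBM15B.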

How the data were processed

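hMeDIP-seq libraries of 3 Lean, 3 untreated Obese and 3 vitamin-C-treated Obese swine MSC cultures were grouped by the submitters' labels. The authors aligned 51-base paired reads to susScr 11.1 with Bowtie 2 (2.3.3.1), removed duplicates with Picard (1.67), counted reads over exons with htseq-count (0.9.1) and processed the counts with edgeR (3.28.1). The deposited values are normalized counts, a fractional signal from which whole reads were not recovered, so read depth is unknown and no count model or counting interval was used. Whether counting used strand is not given in the sources used here, so reads over overlapping genes cannot be told apart.

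Numerical residue in 645 values of the treatment table (below 1e-09 in size) was set to 0. Members were matched by symbol or RefSeq synonym, and positions are those of Sscrofa11.1. The study's criteria were applied to the deposited values. limma (3.58.1, R 4.3.3) was fitted with a variance trend to log2(value + 1) over genes in the upper 80% by mean and adjusted by Benjamini-Hochberg. The test of single genes was an exact permutation of the libraries (two-sided, 20 arrangements) in Python 3.11.15 (numpy 2.4.6, pandas 2.3.3, scipy 1.17.1, matplotlib 3.10.9). Markers were 3 MSC, 3 non-MSC, 6 phagocyte, 3 adipocyte and 3 endothelial genes.

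The members and lists were chosen with earlier results of these data known. All members are named. A list gene is named if called or highest or lowest of its list, and any partner gene may be named, as are the 3 genes most like NCF4. A further partner gene was left out of that list and is not reported here. H6PD, markers, neighbouring genes and the ARHGDIA and SOD2 values for Obese-MSCs versus Lean-MSCs were added after values were seen. Alternatives covered thresholds, variances, scaling, filters, pseudocounts and each library left out.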

Additional observations from a re-analysis of the deposited data

How the results depend on the processing

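In Obese-MSCs versus Lean-MSCs, a p threshold of 0.01 in place of 0.05 took the members called from 2 to 0 and all genes called from 852 to 216, and leaving out 1 library gave 0 to 1 members. NCF4 and DUOX1 remained called with unequal variances, on the log2 scale, at a ratio of 1.5, with both other scalings and with a filter on low values. limma called 0 genes throughout, except 1 gene, not a member, without untreated Obese library 1 or 2 (range 0 to 1). With vitamin-C, the members called went from 1 to 0 at p 0.01, with unequal variances and in the upper 80% by mean, where NCF1 is filtered out, and were 0 to 2 with 1 library left out, CYBA replacing NCF1 without treated library 4 and NOXO1 joining it without treated library 5. All genes called went from 364 to 66 at p 0.01 and to 231 in the upper 80%. Fewer libraries or genes enter by construction. Beyond that the cause was not tested. The sign of the log2 ratio changed for members that were not called only, namely CYBB (Obese-MSCs versus Lean-MSCs), NOX4 and DUOX2 (vitamin-C). No paired analysis was possible because the groups share no replicate number. No member passed the adjusted limma threshold, and NCF1, NOXO1 and CYBA lie near the lowest steps of the scale.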

Other observations

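Genes next to the members were looked at after the data were seen. SHF, which lies beside DUOX1, had a log2 ratio of 0.61 in Obese-MSCs versus Lean-MSCs, opposite in sign to that of DUOX1, with groups that did not overlap, and was not called. RPS2, 6538 bases from NOXO1, also had groups that did not overlap, with a log2 ratio of 0.30, and was not called. Groups did not overlap for 11.8% of all genes. SORD, on the other side of DUOX2, had 17.5, 8.46 and 10.7 normalized counts against 33.3, 11.9 and 12.4, with overlapping groups. ZNF598, 14680 bases from NOXO1, was called higher with vitamin-C, at 9.06, 10.2 and 10.8 against 5.11, 8.52 and 5.30, a log2 ratio of 0.66. In that comparison 1.11% of all genes were called higher.

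Of the marker genes, LYZ, the lysozyme gene of phagocytes, was the one called. This was with vitamin-C, where 1.92% of all genes were called, 1.11% higher, and its untreated mean of 2.09 was low. LYZ had 6.03, 4.62 and 3.52 normalized counts with vitamin-C and 2.61, 1.11 and 2.56 without, at least 1.58-fold higher against a floor of 3. The median log2 ratio in Obese-MSCs versus Lean-MSCs was 0.36 over the MSC markers, -0.13 over the non-MSC markers, 0.41 over the phagocyte, 0.34 over the adipocyte and 0.13 over the endothelial markers. With vitamin-C the medians were -0.22, -0.04, -0.19, 0.39 and -0.35 in the same order. The summed phagocyte markers were 153 to 204 in treated and 120 to 224 in untreated libraries.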
